A study of Mus musculus with 6 samples.

Results

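Glucocorticoid-induced genes are the transcripts that the adrenal stress hormones switch on through their nuclear receptor, and 9 of them were followed here probe by probe in the spinal cord of Dhtkd1 null and wild-type mice. The 9 genes were Fkbp5, Tsc22d3, Sgk1, Pdk4, Klf9, Cdkn1a, Ddit4, Hif3a and Errfi1, out of 27376 gene names on the array. Every non-control probe that carried one of these names was used, which gave 17 probes on 26 spots, out of 41174 probes in all. The genes were chosen by their known place in the hormone response and by their measured log2 differences between null and wild-type arrays, so that contrast is given for them as a description, without a test.

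The study compared the cord of Dhtkd1 null mice with that of wild-type mice, in 3 samples of each genotype with 1 array per sample. All mice were male, of the C57BL/6 strain and 8 weeks old, and none is labelled with a treatment. Dhtkd1 encodes a mitochondrial 2-oxoacid dehydrogenase subunit of lysine and tryptophan breakdown. The labels do not say which stretch of the gene was removed or whether each replicate was a separate animal, so the spread between samples may be technical.

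Corticosterone, the main glucocorticoid of mice, enters cells and binds the glucocorticoid receptor, which is held ready by Hsp90 and its co-chaperones. The bound receptor moves to the nucleus and attaches to short palindromic DNA elements near its target genes. Several of these targets feed back on the hormone response, slow growth signalling or shift fuel use, and in the nervous system they respond in glia and endothelium as well as in neurons. Hormone levels, time of sampling and handling of the mice are not in the labels.

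Signals are given as scaled intensity, in which the 75th percentile of each array's non-control spots was set to 1000. A log2 difference is the null mean minus the wild-type mean of log2 scaled intensity, with the moderated standard error (SE) from limma and 3 arrays per genotype. Brightness differs between probes for reasons other than RNA amount, so each probe was compared only with itself. Across the 6 arrays the 75th percentile lay between 950 and 1055 intensity units, 78.4% to 82.0% of spots were well above background, and 0 spots were saturated. Slide 1 carried the 3 null arrays with wild-type replicate 2, and slide 2 carried wild-type replicates 1 and 3. Of 33208 probes tested, 0 passed an adjusted p of 0.05 in limma, while 1834 were higher and 891 lower at an unadjusted p under 0.05. Dhtkd1 itself read 60.3, 60.4 and 55.8 in null cords, against 133, 123 and 117 in wild-type cords, at one probe, and was also lower in all null cords at its other probe. Whether either probe lies in the removed stretch is not stated. All 10 neuron, all 10 oligodendrocyte, all 8 astrocyte and all 10 Hox markers of the cord were above background on all 6 arrays, as the tissue label has it.

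Because the values of Fkbp5 and Hif3a differed along the transcript, the probe nearest the 5′ end of each is shown, as the files give it. The Fkbp5 probe at base 314 of its transcript lies at chr17:28574995-28575054 on the minus strand of mm9, and the Hif3a probe at base 455 lies at chr7:17637281-17637340, also on the minus strand.
Fkbp5 probe at 314: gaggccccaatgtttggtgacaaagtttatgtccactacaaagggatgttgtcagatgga
Hif3a probe at 455: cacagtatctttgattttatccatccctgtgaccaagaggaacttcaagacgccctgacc

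The upstream sequences of 3 glucocorticoid-induced genes are shown because a receptor-like palindrome was found in them, and that of Hif3a is shown because the widest single difference of the 9 genes was measured at that gene. Promoters were taken from RefSeq (GRCm38.p6), of which the 250 bases before the start are printed. Capitals mark the match to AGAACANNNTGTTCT in Sgk1, and to GNACANNNTGTNC in Fam107a and Mt1. The windows are chr10:21993640-21993889 on the plus strand for Sgk1, chr14:8309780-8310029 on the minus strand for Fam107a, chr8:94178839-94179088 on the plus strand for Mt1, and chr7:17062428-17062677 on the minus strand for Hif3a.
Sgk1 promoter: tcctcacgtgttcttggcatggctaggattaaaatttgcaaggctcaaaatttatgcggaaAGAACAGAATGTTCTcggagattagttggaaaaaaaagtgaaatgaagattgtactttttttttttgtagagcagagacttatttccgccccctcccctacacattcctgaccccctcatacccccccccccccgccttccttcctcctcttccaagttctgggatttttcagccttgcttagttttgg
Fam107a promoter: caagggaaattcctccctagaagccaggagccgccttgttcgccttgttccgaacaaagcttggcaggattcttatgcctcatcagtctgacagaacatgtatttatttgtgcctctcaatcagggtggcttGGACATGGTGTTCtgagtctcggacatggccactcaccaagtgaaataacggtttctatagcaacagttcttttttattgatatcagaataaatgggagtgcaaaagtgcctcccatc
Mt1 promoter: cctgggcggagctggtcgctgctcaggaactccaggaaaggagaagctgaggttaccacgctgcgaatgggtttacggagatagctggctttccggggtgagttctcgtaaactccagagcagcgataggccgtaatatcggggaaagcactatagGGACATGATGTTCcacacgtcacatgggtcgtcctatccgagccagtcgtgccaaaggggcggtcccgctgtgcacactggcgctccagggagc
Hif3a promoter: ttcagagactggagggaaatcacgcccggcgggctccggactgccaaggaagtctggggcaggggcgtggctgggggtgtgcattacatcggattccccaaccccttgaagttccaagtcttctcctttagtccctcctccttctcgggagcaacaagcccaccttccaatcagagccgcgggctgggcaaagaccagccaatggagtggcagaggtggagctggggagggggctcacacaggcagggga

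Both motifs were searched on both strands in 300-base windows of 32851 promoters, and every match of the longer one is also a match of the shorter one. The full palindrome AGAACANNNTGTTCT was present in 3 promoters in all (0.00913%), of which Sgk1 was one. There it lay 189 to 175 bases before 1 of the 6 annotated Sgk1 starts. The shorter GNACANNNTGTNC was present in 0.475% of promoters. Among the 18 promoters of the 9 genes it occurred in that same Sgk1 promoter and in no other. Among 30 other glucocorticoid-induced genes with a promoter in the table, 5 held it, namely Fam107a, Map3k6, Mt1, Trim63 and Txnip. Counted by gene, 0.537% of all genes with a promoter held it. The core ACGTG, which hypoxia-inducible factors recognise, was found in 19.6% of all promoters and in 5 of the 18, those of Errfi1, Sgk1, Ddit4, Fkbp5 and Klf9. These matches describe letters within a short window and say nothing of binding in the cord.

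Of the 17 probes, 16 were well above background on all 6 arrays and were tested. At 10 of these 16, belonging to 6 genes, all 3 null arrays lay above all 3 wild-type arrays, where 9.5% of all tested probes did so, and at 0 of them did all null arrays lie below (4.85% of all tested probes). Since this contrast chose the genes, nothing is read from that count. None of the 16 passed the adjusted threshold, which 0% of all tested probes passed. The 5 widest differences were at Hif3a (bases 6886 and 455), at the 3′ probes of Fkbp5 and at Cdkn1a. Pdk4, Errfi1, Sgk1 and the 5′ probe of Fkbp5 overlapped between the genotypes. With each gene represented by its brightest tested probe, 7 of the 9 were higher and 2 lower, where 55.9% of all genes were higher. Nothing is read from this count either. The median log2 difference of the 9 was 0.14, beside 0.02 over all 21451 genes. That median depends on the probes and arrays used, and was 0.35 with all tested probes of a gene averaged. It was 0.31 when null replicate 2 was left out and 0.41 when wild-type replicate 3 was.

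**Figure D1:**
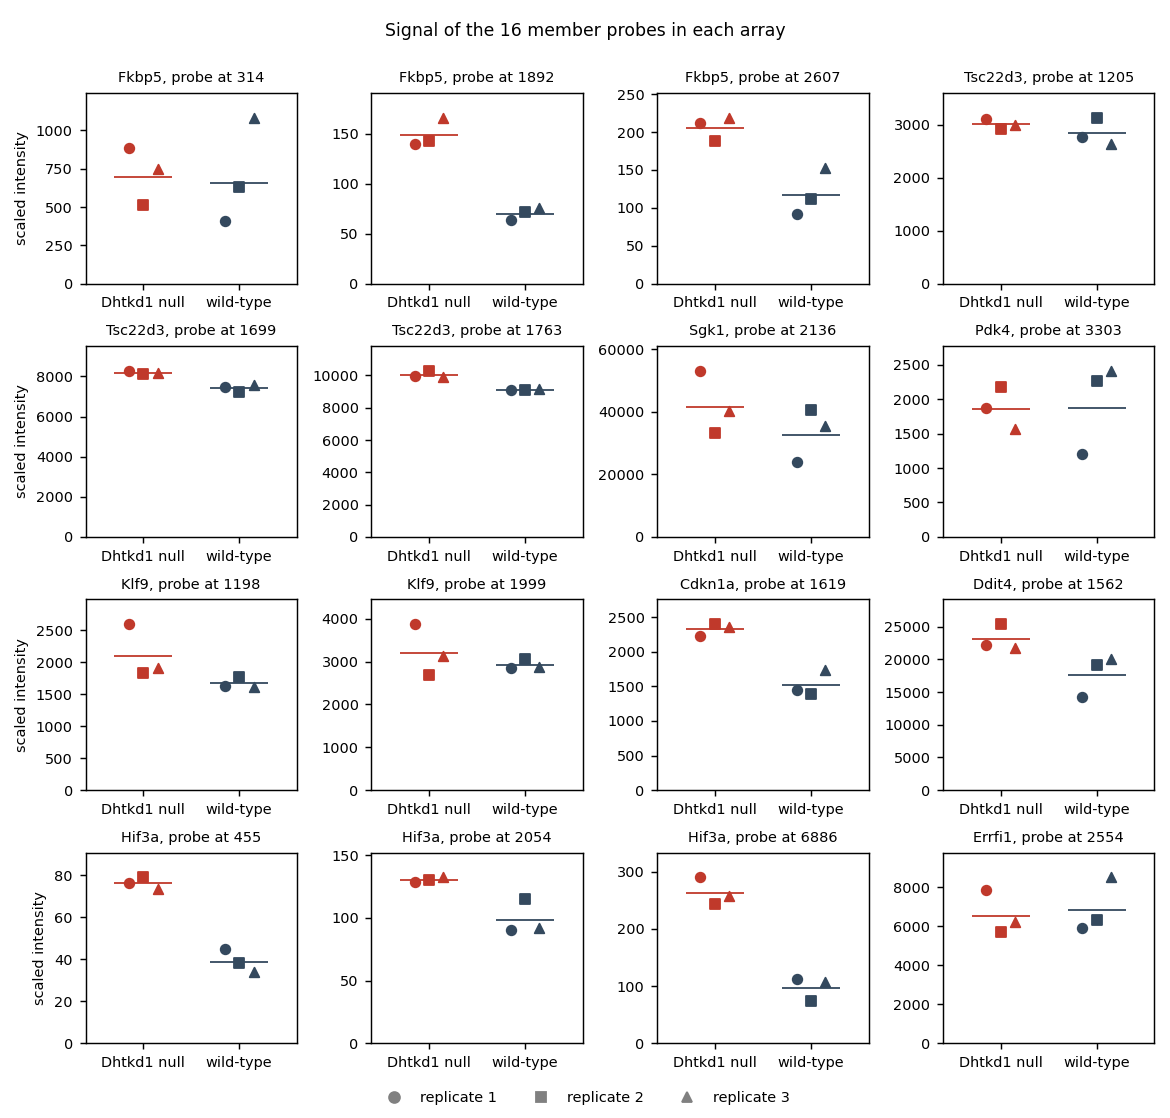
Scaled intensity (linear axes from 0, 75th percentile of each array = 1000) of the 16 tested probes of the 9 genes, one panel per probe, with Dhtkd1 null arrays in red and wild-type arrays in dark blue. Points are single arrays, with the symbol giving the replicate, and lines are the means of log2 values. Groups are apart at 10 probes and overlap at 6, among them Fkbp5 at 314, Sgk1, Pdk4 and Errfi1.

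Fkbp5 encodes FKBP51, a co-chaperone that sits with Hsp90 on the receptor and lowers its affinity for hormone, and is among the most used readouts of glucocorticoid action. Its probe at base 1892 (chr17:28537593-28537652, mm9) read 140, 143 and 166 in null cords, against 63.5, 72.2 and 75.4 in wild-type cords, a log2 difference of 1.09 (SE 0.11). Its probe at base 2607 (chr17:28536878-28536937) read 211, 189 and 219 in null cords, against 92.4, 112 and 153 in wild-type cords, a difference of 0.82 (SE 0.19). At both, every null array was above every wild-type array, with wild-type replicate 3 the nearest to the null arrays. The probe at base 314 gave another picture. It read 887, 511 and 746 in null cords, against 412, 629 and 1082 in wild-type cords, a difference of 0.09 (SE 0.39), and its highest and its lowest array were both wild-type. All 3 probes are assigned to the same transcript record, so a gene-level value for Fkbp5 depends on the probe, and what sets them apart was not tested. Within-genotype deviations at 314 and 2607 nevertheless ran together (r = 0.95 over 6 arrays), and those at 314 and 1892 less closely (r = 0.60).

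Hif3a, an α-subunit of the hypoxia-inducible factors of which some variants restrain the others, is raised by glucocorticoids in several tissues. Its probe at base 6886 (chr7:17616343-17616402, mm9) read 290, 243 and 258 in null cords, against 112, 74.5 and 107.1 in wild-type cords. The log2 difference of 1.45 (SE 0.18), or 2.73-fold, was the widest of the 16. At base 455 the null cords read 76.1, 78.9 and 73.6, against 44.9, 38.3 and 34.0 in wild-type cords (0.97, SE 0.12). At base 2054 (chr7:17621175-17621234) they read 129, 130 and 132, against 90.5, 115 and 91.8 in wild-type cords (0.41, SE 0.11). The null arrays were above the wild-type arrays at all 3 Hif3a probes and were tightly grouped at the first 2 along the transcript. The size depended on background correction, since with the normexp method the difference at 6886 was 1.01, that at 455 was 0.46 and that at 2054 was 0.27. Within slide 1, where wild-type replicate 2 is the only wild-type array, they were 1.82, 0.99 and 0.18 in the same order.

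**Figure D2:**
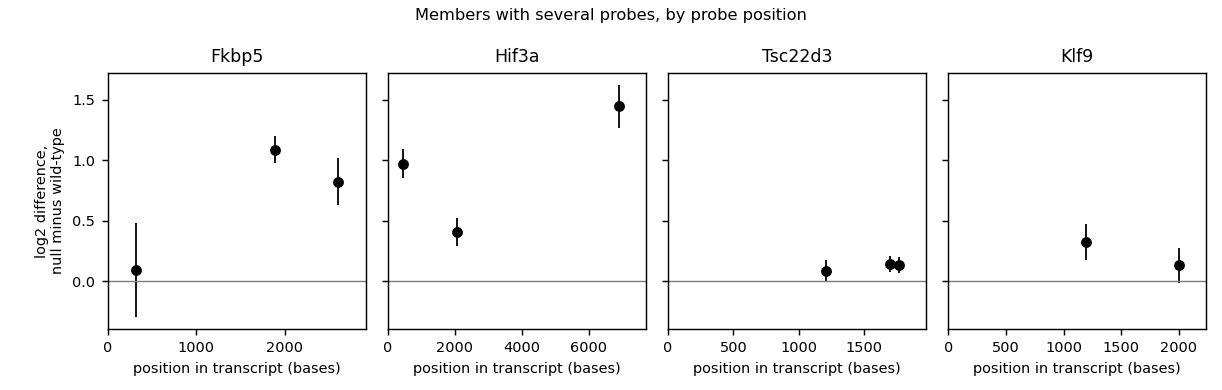
Log2 difference (Dhtkd1 null minus wild-type) at each tested probe of the genes with more than 1 tested probe, against the probe's position in its transcript in bases. Points are differences of means over 3 arrays per genotype and bars are the SE. In Tsc22d3 the position 1699 is counted on another transcript record than 1205 and 1763. On the genome that probe lies 3′ of the one at 1763, so the plotted order is not the genomic order. In Fkbp5 the difference is 0.09 at base 314 and 1.09 and 0.82 further 3′, while the 3 Hif3a probes are at 0.97, 0.41 and 1.45.

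Klf9 encodes a zinc-finger transcription factor that is induced quickly by corticosterone in brain. At base 1198 (chr19:23239337-23239396, mm9, plus strand) it read 2595, 1838 and 1918 in null cords, against 1636, 1777 and 1607 in wild-type cords, with a log2 difference of 0.32 (SE 0.15). At base 1999 (chr19:23240138-23240197) it read 3874, 2697 and 3130 in null cords, against 2841, 3065 and 2865 in wild-type cords (0.13, SE 0.14). The groups were just apart at the first probe and overlapped at the second. Null replicate 1 was the highest array at both, and without it the differences were 0.17 at 1198 and -0.01 at 1999. The within-genotype deviations of the probes ran together (r = 0.95 over 6 arrays).

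Tsc22d3 encodes GILZ, a leucine zipper protein through which glucocorticoids restrain inflammatory signalling. Its probe at base 1763 (chrX:137074393-137074452, mm9, minus strand) read 9955, 10275 and 9881 in null cords, against 9105, 9118 and 9170 in wild-type cords. Its probe at base 1699 of another transcript record (chrX:137074267-137074327) read 8269, 8129 and 8157 in null cords, against 7493, 7226 and 7572 in wild-type cords. The replicates were close and the groups apart at both, with a log2 difference of 0.14 (SE 0.07) at each. With arrays centred on their medians these differences were 0.09 at both. At base 1205 (chrX:137074951-137075010) the groups overlapped, at 3114, 2914 and 3002 in null cords and 2772, 3128 and 2634 in wild-type cords, a difference of 0.08 (SE 0.09). In slide 1 alone that last difference was -0.06.

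Cdkn1a encodes p21, an inhibitor of cyclin-dependent kinases that is a target of both the glucocorticoid receptor and p53. Its single probe (chr17:29237377-29237436, mm9, plus strand) was spotted 10 times on each array, and its spots differed with a standard deviation of 0.02 to 0.04 on the log2 scale. It read 2238, 2402 and 2361 in null cords, against 1450, 1398 and 1742 in wild-type cords, a log2 difference of 0.62 (SE 0.11). The groups did not overlap, and the difference was 0.74 within slide 1. The spread over spots of an array was below the standard deviation over arrays, which was 0.05 in null and 0.17 in wild-type cords.

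Ddit4 encodes REDD1, which restrains the growth kinase complex mTORC1 through Tsc1 and Tsc2. Its probe (chr10:59412486-59412545, mm9, minus strand) read 22220, 25402 and 21793 in null cords, against 14288, 19224 and 20094 in wild-type cords. The groups were apart, wild-type replicate 1 was the lowest, and the log2 difference of 0.39 (SE 0.15) was 0.26 within slide 1.

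Sgk1 encodes a serum- and glucocorticoid-regulated kinase that controls ion channels and transporters and is known to respond to stress hormone in oligodendrocytes. Its main probe (chr10:21719390-21719449, mm9, plus strand) read 53059, 33372 and 40343 in null cords, against 23934, 40738 and 35508 in wild-type cords. Wild-type replicate 1 was the lowest and null replicate 1 the highest, and the other arrays were mixed. Summed oligodendrocyte markers were 571904, 511130 and 528852 in null cords, and 499216, 620400 and 591589 in wild-type cords, in the same array order within each genotype as Sgk1. Their part in the Sgk1 values was not tested. The log2 difference of 0.35 (SE 0.25) was 0.03 within slide 1. The other Sgk1 probe, placed on a separate transcript (chr10:21618550-21618609), was well above background on 1 of 6 arrays and was left out of the fit. It read 8.91, 9.17 and 4.55 in null cords, and 9.98, 8.13 and 3.42 in wild-type cords.

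Errfi1 encodes MIG6, a feedback inhibitor of the EGF receptor. Its probe (chr4:150242526-150242585, mm9, plus strand) read 7864, 5707 and 6224 in null cords, against 5913, 6313 and 8513 in wild-type cords. Pdk4 encodes a kinase that shuts pyruvate dehydrogenase off during fasting. Its probe (chr6:5433441-5433500, mm9, minus strand) read 1876, 2185 and 1576 in null cords, against 1212, 2269 and 2412 in wild-type cords. Both genes overlapped between genotypes, with log2 differences of -0.06 (SE 0.19) and -0.01 (SE 0.29). Their sign turned when single arrays were left out, from -0.20 to 0.10 for Errfi1 and from -0.33 to 0.17 for Pdk4.

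**Figure D3:**
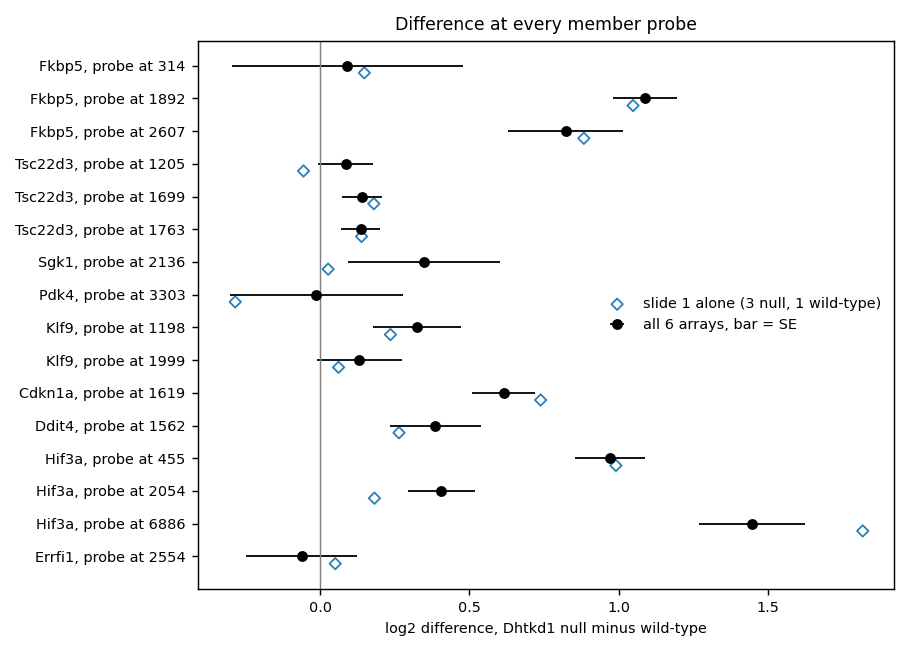
Log2 difference (Dhtkd1 null minus wild-type) at each of the 16 tested probes, labelled by gene and transcript position. Black points with SE bars use all 6 arrays, and open diamonds use slide 1 alone, with 3 null arrays and 1 wild-type array and so no error. Fkbp5 at 1892 and 2607, Hif3a at 455 and 6886 and Cdkn1a lie above 0.5 in both, while Sgk1 moves to 0.03 and Pdk4 to -0.29 on slide 1.

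The 9 genes varied unevenly across arrays. As a mean z-score over the 9 representative probes, the null arrays were at 0.89, 0.19 and 0.28 and the wild-type arrays at -1.15, -0.35 and 0.14. Null replicate 1 was the highest and wild-type replicate 1 the lowest, and wild-type replicate 3 was close to null replicates 2 and 3. After the genotype means were removed, 67 of 120 probe pairs had a positive correlation over the 6 arrays. Pdk4 and Ddit4 had r = 0.98, and Fkbp5 at 314 and Errfi1 had r = 0.92. Hif3a at 455 and Fkbp5 at 2607, both higher in null cords, ran opposite within genotypes (r = -0.97), as did the Hif3a probes at 2054 and 6886 (r = -0.94). These correlations rest on 6 arrays that share their normalization, and they are descriptions only.

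The genes most like the mean profile of the 9 over 6 arrays, among 4792 ranked, were Arid5b (r = 0.987), Adipor2 (0.983), Dio2 (0.981), Ppp1r3g (0.977), Klf15 (0.975) and Rhpn2 (0.970). All 6 averaged higher in null cords, by 0.24 to 0.59 on the log2 scale, a direction that their choice by likeness to this profile fixed. On deviations from the genotype means the genes most alike included Dapp1 (r = 0.998), Cdr2 (0.996), Nf2 (0.995), Itpk1 (0.993) and Stxbp3a (0.993). None of these genes was among the 6 named for the profile over all arrays.

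Upstream of the targets, the receptor and an enzyme that regenerates its ligand averaged lower in null cords, without passing the adjusted threshold. Nr3c1, the glucocorticoid receptor, read 2009, 1937 and 1886 in null cords, against 2315, 2550 and 2515 in wild-type cords, at its brightest probe. The log2 difference was -0.34 (SE 0.08, adjusted p = 0.459 in limma), and every null array was below every wild-type array. Its other probes differed by -0.39, -0.14 and -0.10, without overlap at the first 2 of these. Hsd11b1, which regenerates active glucocorticoid from its inert form inside cells, read 3132, 4160 and 2382 in null cords, against 6713, 5134 and 4506 in wild-type cords. It differed by -0.77 (SE 0.24, adjusted p = 0.559), again without overlap. Within slide 1 the differences were -0.39 for Nr3c1 and -0.71 for Hsd11b1.

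**Figure D4:**
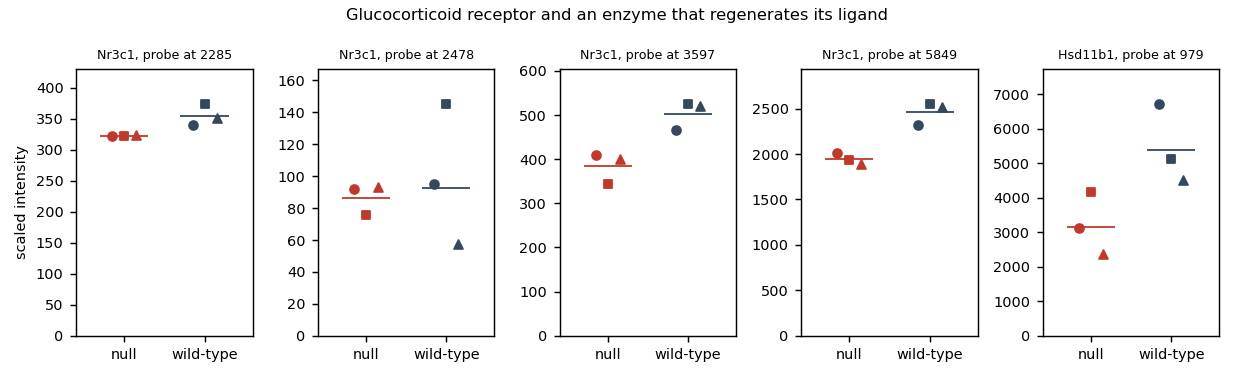
Scaled intensity (linear axes from 0) of the 4 Nr3c1 probes and the Hsd11b1 probe, labelled by transcript position, with Dhtkd1 null arrays in red and wild-type arrays in dark blue. Symbols give the replicate (circle 1, square 2, triangle 3) and lines are means of log2 values. Null arrays lie below wild-type arrays in all panels except Nr3c1 at 2478, where the groups overlap.

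The mineralocorticoid receptor Nr3c2, which binds the same hormone with higher affinity, differed by 0.06, -0.14 and 0.26 at its 3 probes. Over all genes, 55.9% averaged higher. Among 15 tested genes for the receptors, ligand supply and Hsp90 chaperones, 7 averaged higher and 8 lower, and the median was -0.02. Of them 0 were higher and 2 lower at an unadjusted p under 0.05, Nr3c1 and Hsd11b1, where 5.83% of all genes were higher and 2.94% lower. The 2 that were lower in all null arrays were the same, beside 5.19% of all genes. The co-chaperone Fkbp4, a close relative of Fkbp5 that favours transport of the receptor, differed by -0.04 (SE 0.12), and Hsp90aa1 by 0.17 (SE 0.09). Hsd11b2 was not above background on enough arrays.

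Genes outside the 9 that glucocorticoids are known to induce leaned towards null cords. Their list was chosen with earlier results of these data known, so the counts are a description and no independent support. Of 31 on the array, 23 were higher and 8 lower, with a median log2 difference of 0.19, beside 0.02 and 55.9% higher over all genes. At an unadjusted p under 0.05, 8 were higher (5.83% of all genes) and 0 lower (2.94%), and 0 passed the adjusted threshold. In 9 of the 31 genes all null arrays were above all wild-type arrays, where 9.67% of all genes did so. Per1, Dusp1, Fbxo32 and Txnip, which belong to the same list, differed by -0.40, -0.33, -0.34 and -0.37, with overlapping groups. These 4 were picked after their values were seen.

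**Figure D5:**
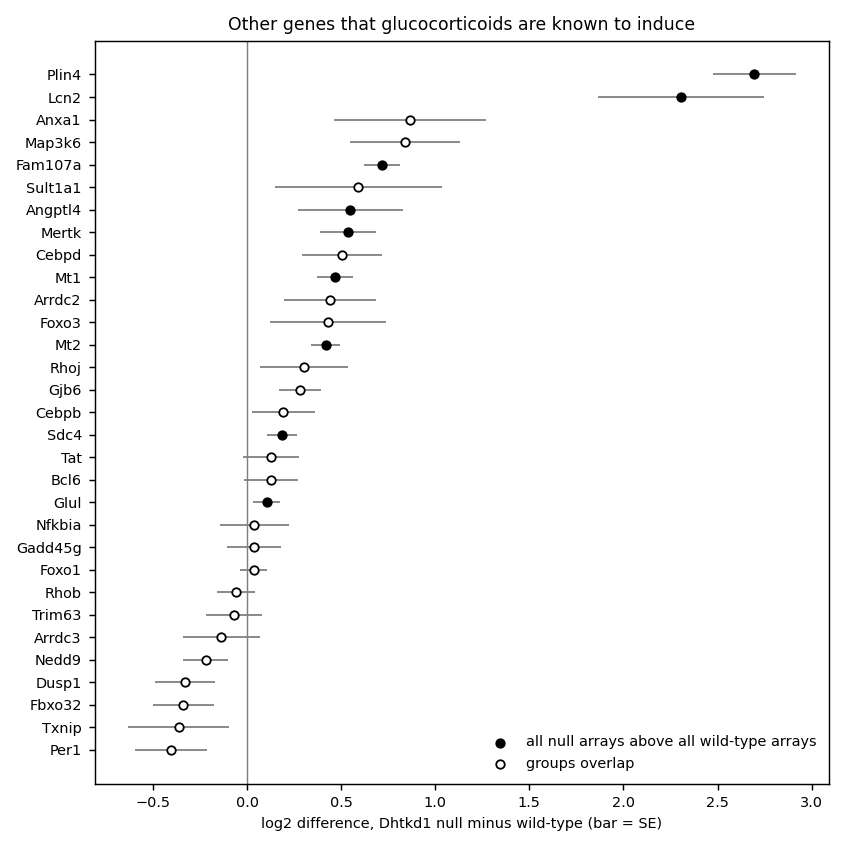
Log2 difference (Dhtkd1 null minus wild-type) of 31 other genes that glucocorticoids are known to induce, 1 probe per gene, with SE bars over 3 arrays per genotype. Filled points are genes whose null arrays all lie above the wild-type arrays. Plin4 at 2.70 and Lcn2 at 2.31 stand apart, and Per1 is the lowest at -0.40.

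Plin4, a coat protein of lipid droplets, read 4317, 6080 and 6364 in null cords, against 708, 794 and 1092 in wild-type cords. That log2 difference of 2.70 (SE 0.22) had an adjusted p of 0.0923 in limma. This was the lowest value of all probes, and several probes shared it, a Dhtkd1 probe among them. Fam107a, an actin-binding stress response protein, read 3858, 4527 and 4358 in null cords, against 2602, 2739 and 2404 in wild-type cords (0.72, SE 0.10, adjusted p = 0.203). The groups were far apart at both genes, within a narrow spread for Fam107a. Lcn2, an iron-binding acute phase protein, read 644, 1633 and 1322 in null cords, against 354, 204 and 159 in wild-type cords (2.31, SE 0.44, adjusted p = 0.363). The metal-binding Mt2 read 197125, 209093 and 195115 in null cords, against 141431, 154807 and 153784 in wild-type cords (0.42, SE 0.08, adjusted p = 0.359). Within slide 1 the differences were 2.79 for Plin4, 0.63 for Fam107a, 2.45 for Lcn2 and 0.37 for Mt2. Mt1, another metallothionein, named because its promoter is shown, differed by 0.47 (SE 0.10) at its brighter probe and by -0.17 (SE 0.50) at the dimmer one.

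Genes that the hormone is known to lower, most of them inflammatory, made up a further list. Of 13 tested, 4 averaged higher and 9 lower (median -0.13), where 55.9% of all genes averaged higher. At an unadjusted p under 0.05 there were 2 higher (5.83% of all genes) and 0 lower (2.94%). The prostaglandin synthase Ptgs2 read 52.2, 175 and 280 in null cords, against 21.4, 16.7 and 51.4 in wild-type cords, a log2 difference of 2.37 (SE 0.72, adjusted p = 0.551), beside 3.21 (SE 0.65) at its dimmer probe and 3.03 within slide 1 at the brighter one. The null arrays spread widely and null replicate 1 barely exceeded wild-type replicate 3. Tnf, at the edge of detection and above background on 4 arrays, differed by 0.88 (SE 0.26). Pomc, the precursor of the hormone that drives the adrenal, differed by -0.18 (SE 0.11), with the null arrays below. The NF-κB subunit Nfkb1 differed by -0.13 (SE 0.07) at its brightest probe, also with the null arrays below, while its other probes differed by -0.22, 0.08 and 0.10.

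Several of the 9 genes also answer to other signals, and those programmes were read beside them. Of 14 genes listed as hypoxia-induced, a programme that also drives Ddit4, 10 were higher and 4 lower (median 0.08), where 55.9% of all genes averaged higher. That list also counts Hif1a and Epas1, which encode subunits of the hypoxia-inducible factors themselves. At an unadjusted p under 0.05, 4 of the 14 were higher (5.83% of all genes) and 1, Hif1a, was lower (2.94%). Ankrd37, a target of the hypoxia-inducible factors, read 1007, 1229 and 1609 in null cords, against 615, 590 and 678 in wild-type cords (1.01, SE 0.18, adjusted p = 0.359). The glucose transporter Slc2a1 differed by 0.48 (SE 0.10) and lactate dehydrogenase Ldha by 0.40 (SE 0.11) and 0.37 (SE 0.11) at its 2 probes. Hif1a, the oxygen-regulated subunit itself, differed by -0.25 (SE 0.08). Of the 14, all null arrays were above all wild-type arrays in 4 (9.67% of all genes) and below in 2 (5.19%). The 4 genes named here were picked because their groups did not overlap, and 0 passed the adjusted threshold. Within slide 1 they differed by 1.09 for Ankrd37, 0.46 for Slc2a1, 0.24 for Ldha and -0.19 for Hif1a.

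Of 12 genes in the p53 target list, 4 averaged higher and 8 lower (median -0.03), where 55.9% of all genes averaged higher. That programme shares Cdkn1a, and the list also counts Trp53, which encodes p53 itself. Among the 12, 0 reached an unadjusted p under 0.05, where 5.83% of all genes were higher and 2.94% lower. Among them Mdm2 differed by -0.06 (SE 0.08) and Ccng1 by 0.15 (SE 0.12) at their brighter probes. Of 13 fasting and PPAR target genes, which share Pdk4, 5 averaged higher and 8 lower (median -0.04), and 0 reached that level. With those shares, nothing is read from a count of 0 in lists this short. Acot1, a fatty acyl-CoA thioesterase, differed by -0.16 (SE 0.09). It was the 1 gene of the 13 with all null arrays below, beside 5.19% of all genes. Cpt1a, the gate of mitochondrial fatty acid import, differed by -0.17 (SE 0.10). Mdm2, Ccng1 and Cpt1a were picked after their values were seen.

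Of 14 clock genes, 3 averaged higher and 11 lower (median -0.12), where 55.9% of all genes averaged higher. At an unadjusted p under 0.05 there were 0 higher (5.83% of all genes) and 1 lower (2.94%). Dbp, an output factor of the clock whose level swings strongly over the day, read 13150, 14638 and 12098 in null cords, against 20662, 16122 and 20245 in wild-type cords (-0.51, SE 0.13, adjusted p = 0.511). Within slide 1 Dbp differed by -0.28 and the median of the clock genes was -0.02. Clock differed by -0.10 (SE 0.07) at its brightest probe and by 0.28 (SE 0.11) at a dimmer one. Corticosterone itself follows a daily rhythm, and time of day cannot be told apart from genotype here, since the labels do not give it. Of 10 partners of Ddit4 and Errfi1 in mTORC1 and EGF receptor signalling, 3 were higher and 7 lower (median -0.06), with 0 higher (5.83% of all genes) and 3 lower (2.94%) at an unadjusted p under 0.05. The 3 were Egfr (-0.30, SE 0.11), Erbb3 (-0.32, SE 0.11) and the Ddit4 relative Ddit4l (-0.42, SE 0.17), of which Ddit4l overlapped between genotypes. The 4 dimmer Erbb3 probes differed by 0.01 to 0.26, so the probes of that gene disagree.

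Markers of cells that may be carried with or vary within the cord differed between arrays, and in bulk RNA fewer cells of a type and less RNA per cell cannot be told apart. Beside the counts of markers given here, 55.9% of all genes averaged higher in null cords. All 8 neutrophil and marrow markers, Lcn2 among them, were higher in null cords, with summed signals of 41768 to 158833 in null cords against 27573 to 61203 in wild-type cords. All 7 tested adipocyte markers were higher too, with sums of 669 to 6246 in null cords against 300 to 2466 in wild-type cords, and Lep was not tested. Null replicate 2 and wild-type replicate 2 were the richest in adipocyte markers. Plin4, also made by adipocytes, was high in all 3 null arrays and low in all 3 wild-type arrays. All 8 Schwann cell markers were lower, with sums of 22928 to 46122 in null cords against 32634 to 118043 in wild-type cords. Endothelial and mural markers, 3 of 8 higher, summed to 20115 to 26236 in null cords against 19371 to 20726 in wild-type cords. Of 8 microglial markers 7 were higher, with sums of 15067 to 17318 in null cords against 10460 to 15279 in wild-type cords. At an unadjusted p under 0.05, 3 of them were higher (5.83% of all genes). Of 10 oligodendrocyte markers 8 were lower, with a median of -0.25, and 2 were lower at that level (2.94% of all genes). At the same level 2 Schwann cell markers were lower. Sox10 stands in both the oligodendrocyte and the Schwann cell list, so their counts are not separate. Higher at that level were 2 Hox genes and 1 marker each of neutrophil and marrow, endothelial and mural, and red blood cells. The neutrophil and marrow marker that reached it was Lcn2 itself. Meningeal fibroblast markers, 6 of 8 lower, summed to 112488 to 289922 in null cords against 154864 to 360563 in wild-type cords. All 4 tested red blood cell markers were higher, with sums of 49998 to 79631 in null cords against 35071 to 67458 in wild-type cords. Skeletal muscle markers, 7 of 8 higher, summed to 34314 to 40197 in null cords against 9575 to 59168 in wild-type cords. Astrocyte markers, 6 of 8 lower, summed to 258594 to 299581 in null cords against 265649 to 366296 in wild-type cords. Neuron markers, 5 higher and 5 lower, summed to 356231 to 401771 in null cords against 371196 to 436314 in wild-type cords. The sums of all these cell types overlapped between genotypes. The 10 Hox genes that mark level along the cord, 9 of them higher, summed to 23691 to 27493 in null cords against 17687 to 21902 in wild-type cords, without overlap. The part of these in the differences of the 9 genes, of Plin4 and of Lcn2 was not tested.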

How the data were processed

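Total RNA of 6 spinal cord samples was labelled with 1 dye and hybridised to Agilent mouse arrays (design 014868). The deposited scanner files hold spot intensity made with Feature Extraction 10.7.3.1, background-subtracted and detrended within each array per the file headers, with probe positions on mm9. The authors' value table is in log2 units whose method is not given in the sources used here. It has column medians of 7.22, followed each array with r of at least 0.9997, and served as an alternative.

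Processed intensity was taken to log2 and the array's 75th percentile subtracted. Control and outlier spots were left out, spots of a probe averaged, and probes kept when well above background on at least 3 of 6 arrays. limma 3.58.1 (lmFit, eBayes, R 4.3.3) compared null with wild-type over 33208 probes with Benjamini-Hochberg adjustment, without covariates. A gene's representative was its brightest kept probe. The members, gene lists, motifs and tests were chosen with earlier results of these data known. The text names every probe of the 9 genes, Nr3c1, Nr3c2 and Dhtkd1, from each list up to 4 non-overlapping genes of smallest p, and 6 genes per likeness ranking, of which 1 is not reported here. Others were named after their values were seen.

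Same-numbered null and wild-type arrays correlated at -0.02, -0.09 and 0.30 after group means were removed, so the numbers were not taken as pairs. The alternatives covered normalization, background correction, filters, outlier spots, slide, moderation and left-out arrays. The fitting was tested on simulated data with independent noise and no slide effect, so that test does not cover the uneven slide layout. An exact permutation test of 3 against 3 arrays cannot go below 0.1. The number of arrays limits the precision.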

Additional observations from a re-analysis of the deposited data

How the results depend on the processing

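With 3 arrays per genotype, dim probes and small differences are the least certain, and the 3 Hif3a probes and the 3′ Fkbp5 probes are dim, with smaller differences under normexp background correction. The median log2 difference of the 9 genes was 0.14, lay between 0.126 and 0.410 with single arrays left out, and reached the top of that range without wild-type replicate 3. Under the other settings it lay between 0.0852 (median centring) and 0.348 (all tested probes of a gene averaged), and 7 to 8 of the 9 genes were higher. With arrays left out, 5 to 9 were higher. Probes past the adjusted threshold numbered 0, but 1 with normexp background correction, 7 with the trend and robust options of limma, among them Plin4, and 0 to 4 with single arrays left out (1 without null replicate 1 and 4 without null replicate 2). None of these probes belonged to the 9 genes. The median of the 31 other induced genes stayed above 0 throughout, from 0.14 to 0.27. The median of clock genes was -0.17 to 0.03. With replicate number as a block, which leaves each difference as it was, the replicate block gave 0 probes past the threshold and a lowest adjusted p of 0.500. Of the 16 probes, those of Pdk4, Errfi1, Fkbp5 at 314, Klf9 at 1999 and Tsc22d3 at 1205 changed sign under at least 1 setting. Counts of probes at an unadjusted p under 0.05 ran from 1207 to 2964 higher and from 554 to 1415 lower.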
